A study of Homo sapiens with 8 samples.

Results

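Cell junction genes were described in Panc-1 cells after depletion of PHF13, treatment with TGFβ, or both. Members were the genes of the deposited table whose symbols belong to a cadherin with a number, a catenin of the cadherin complex, a desmosomal protein, a claudin or another tight junction protein, a connexin, a nectin (*PVRL*), a PAR polarity protein, or *EPCAM*. This rule uses symbols and no measured value, and it took 60 of 13307 genes: 12 cadherins, 4 catenins, 7 desmosomal genes, 14 claudins, 8 other tight junction genes, 7 connexins, 3 nectins, 4 polarity genes and *EPCAM*. PHF13 is a PHD finger protein that reads methylated histone H3, and the study asked whether it is needed for the epithelial-to-mesenchymal transition (EMT) that TGFβ induces. The 8 polyA RNA-seq libraries form 4 groups of 2: siControl (non-targeting siRNA, untreated), siPHF13 (siRNA against *PHF13*, untreated), siControl + TGFβ and siPHF13 + TGFβ. All cells were transfected with RNAiMAX and came from the single cell line PANC-1, from a human pancreatic ductal carcinoma, and TGFβ groups received 10 ng/ml for 48 h from the day after transfection. The labels do not say whether the libraries of a group came from separate cultures, so p-values measure the spread between these libraries, which may be technical.

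Epithelial cells are joined by several kinds of junction. At adherens junctions, cadherins bind their like on the next cell and hold the actin cytoskeleton through catenins, with nectins beside them. At desmosomes, desmogleins and desmocollins are tied to keratin filaments by plakophilins and desmoplakin. Claudins form the barrier and the pores of tight junctions, with ZO proteins (*TJP* genes) as the scaffold below the membrane, and connexins form the channels of gap junctions. Carcinoma cells that pass through EMT typically lose E-cadherin (*CDH1*) and gain N-cadherin (*CDH2*), and TGFβ is a known inducer of this exchange.

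Reads on genes ranged from 39196214 to 46700806 per library, and members took between 0.28 and 0.328% of them. Values are normalized counts, which are reads per gene divided by a size factor of each library. *PHF13* had 1804 and 1662 normalized counts in siControl and 524 and 558 in siPHF13 libraries, and 1586 and 1709 in siControl + TGFβ against 513 and 529 in siPHF13 + TGFβ libraries. Of the duct epithelium markers 7 of 9 were in the table, the member *EPCAM* among them, with *KRT8*, *KRT18* and *KRT19* at the highest levels, while *CFTR* was not; the 5 acinar and 4 islet markers were not in the table either. Summed over the list, duct markers lay between 175270 and 209330 normalized counts in untreated and between 131860 and 156040 in TGFβ-treated libraries. *KRT8*, *KRT18* and *KRT19* carried this sum, whereas with TGFβ in control cells *SOX9* was called higher (log2 fold change 0.90) and *KRT7* was at 0.046. The fibroblast list held *COL1A1* and *PDGFRB*, with a sum of 1917 to 3462 in untreated libraries, 15359 to 16471 in siControl + TGFβ and 4736 to 4946 in siPHF13 + TGFβ, nearly all of it *COL1A1*. Of the immune list *CD14* and *CD68* were present and of the endothelial list *KDR*, at sums of 6161 to 13426 and 7.59 to 32.6. Of these, *CD68* was called higher after depletion (log2 fold change 0.77 without and 0.79 with TGFβ), while *PTPRC* and *CD3E* were not in the table. Whether other cells took part in any result was not tested, and in bulk RNA fewer cells with a transcript and less transcript per cell cannot be told apart. No gene in the table had a mean over the 8 libraries under 9.82, and 18 members had a mean under 100, so a member that was low in siControl cells, such as *GJB6* at 7.75 normalized counts, is in the table through its values in the other libraries.

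The start regions of 3 desmosomal genes that held E-box letters are shown (*DSP* and *DSC2*, called lower after depletion, and *DSG2*, below the fold threshold), with those of a claudin called higher after depletion (*CLDN6*) and a connexin called higher with TGFβ (*GJA1*). They were chosen after the values were seen. Sequences are those of RefSeq, whose table gives the 250 bases before and 50 after a start site for 39 of the 60 members. *CDH1*, *EPCAM*, *CLDN9*, *CLDN23* and *CTNND1* were among those without an entry, so their promoters were not searched. Positions of the sequences were found by exact match in GRCh37, the same assembly as hg19. Capitals mark CAGGTG or CACCTG, the E-box letters that SNAI and ZEB repressors are known to bind, in *DSG2*, *DSC2* and *DSP*. For *DSG2* (chr18:29077890-29078139, plus strand) and *DSC2* (chr18:28682486-28682634, minus strand) the stretch before the start site that lies outside annotated exons is given, 5′ to 3′.
DSG2: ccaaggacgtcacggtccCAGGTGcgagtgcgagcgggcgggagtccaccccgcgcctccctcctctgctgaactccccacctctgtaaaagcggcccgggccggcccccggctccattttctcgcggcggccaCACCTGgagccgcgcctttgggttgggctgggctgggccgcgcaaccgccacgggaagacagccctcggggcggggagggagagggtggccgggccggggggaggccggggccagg
DSC2: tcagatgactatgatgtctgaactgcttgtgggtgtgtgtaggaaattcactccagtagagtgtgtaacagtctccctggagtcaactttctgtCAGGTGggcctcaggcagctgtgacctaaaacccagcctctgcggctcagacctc
In *DSP*, which encodes desmoplakin, the window lies in the exon of another annotated transcript, so only the matches with 10 bases on each side are shown (chr6:7541716-7541741 and chr6:7541809-7541834, plus strand).
DSP site 1: gcggcgggcgCAGGTGgggaggggcg
DSP site 2: agaaaccggcCAGGTGtggcctaggc
These E-box letters began 232 and 116 bases before the start site of *DSG2*, 156 before that of *DSC2*, and 178 and 85 before that of *DSP*. *CLDN6* and *CLDN3*, called higher after depletion, also held them, 32 and 36 bases after their start sites. Searched on both strands over the whole window, CACCTG or CAGGTG was present in 11 of the 39 member promoters (28.2%) and in 20.6% of all 27305 promoters of the table. In *GJA1* (chr6:121756734-121756760, plus strand) capitals mark TGANTCA, a pattern that includes AP-1 sites, 48 bases before the start site. In *CLDN6* (chr16:3068214-3068241, minus strand) they mark TGACGTCA, the CRE letters, 47 bases before it. These start sites are those of RefSeq. In GENCODE *GJA1* begins at 121756741 and *CLDN6* runs from 3064713 to 3070072, so the marked letters of both lie inside the annotated genes.
GJA1: tcctcccagtTGAGTCAgtggcttgaa
CLDN6: ggtggtccagTGACGTCAccgcttcttt
TGANTCA was found in 4 of the 39 member promoters (10.3%) against 7.76% of all promoters, and TGACGTCA in 3 (7.69%) against 1.98%. The latter was searched after the *CLDN6* sequence had been read, so its share is a description of a chosen pattern. AACCNGTT, the letters bound by grainyhead-like factors, was in 1 member promoter (2.56%, that of *CGN*) against 1.73%. A match describes letters and not an occupied site.

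Levels were compared between genes per kilobase of exon, as mean normalized counts over the 8 libraries. *CLDN4*, a claudin of barrier epithelia, was highest of all members at 2632 normalized counts per kb. It was followed by the actin-linking catenin *CTNNA1* (1928), *CLDN1* (1612), plakoglobin (*JUP*, 1597) and the nectin *PVRL2* (1486). Roles were given by symbol and not by a test of function. In the group of other tight junction genes *MARVELD1* was highest at 731 normalized counts per kb. The highest members of the remaining roles were the connexin *GJC1* at 681, plakophilin 3 (*PKP3*) at 558, *PARD6B* at 314 and, among cadherins, *CDH2* at 240.5 normalized counts per kb. *EPCAM*, an epithelial adhesion protein, stood at 82.0 and *CDH1* at 34.4 normalized counts per kb, both below *CDH2*. Claudins ranged down to low levels, and *CLDN16*, *CLDN20*, *CLDN14* and *CLDN6* had siControl means of 13.7 normalized counts per gene or less.

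Depletion of PHF13 without TGFβ raised some junction genes and lowered others. Claudins were 7 of the 12 called higher, led by *CLDN6*, while desmoplakin, the nectin *PVRL1*, *CDH1* and *CDH2* were lower. A gene was called changed at an adjusted p under 0.05 in the limma fit over all genes together with an absolute log2 fold change over 0.58, the thresholds of the study. Of the 60 members, 23 were called (38.3%), against 18.4% of all 13307 genes. Of the 60, 12 were higher, where 7.95% of all genes were, and 11 lower, where 10.4% of all genes were. The median log2 fold change of members was -0.11 and that of all genes was -0.00094. Another 14 members passed the p threshold with a smaller fold, 37 of the 60 in all, where 47.4% of all genes did so. Among the 18 members with a mean under 100 normalized counts, 10 were called (55.6%), and 13 of the other 42 (31.0%), where the shares over all genes were 22.7% and 17.6%. The 10 include *GJB6*, which is in the table through libraries other than siControl. In each called member both libraries of the higher group lay above both of the lower. This is not separate evidence, since the calls were made from the same values. The count was 15 without siPHF13 replicate 1, of which 13 were among the 23.

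**Figure D1:**
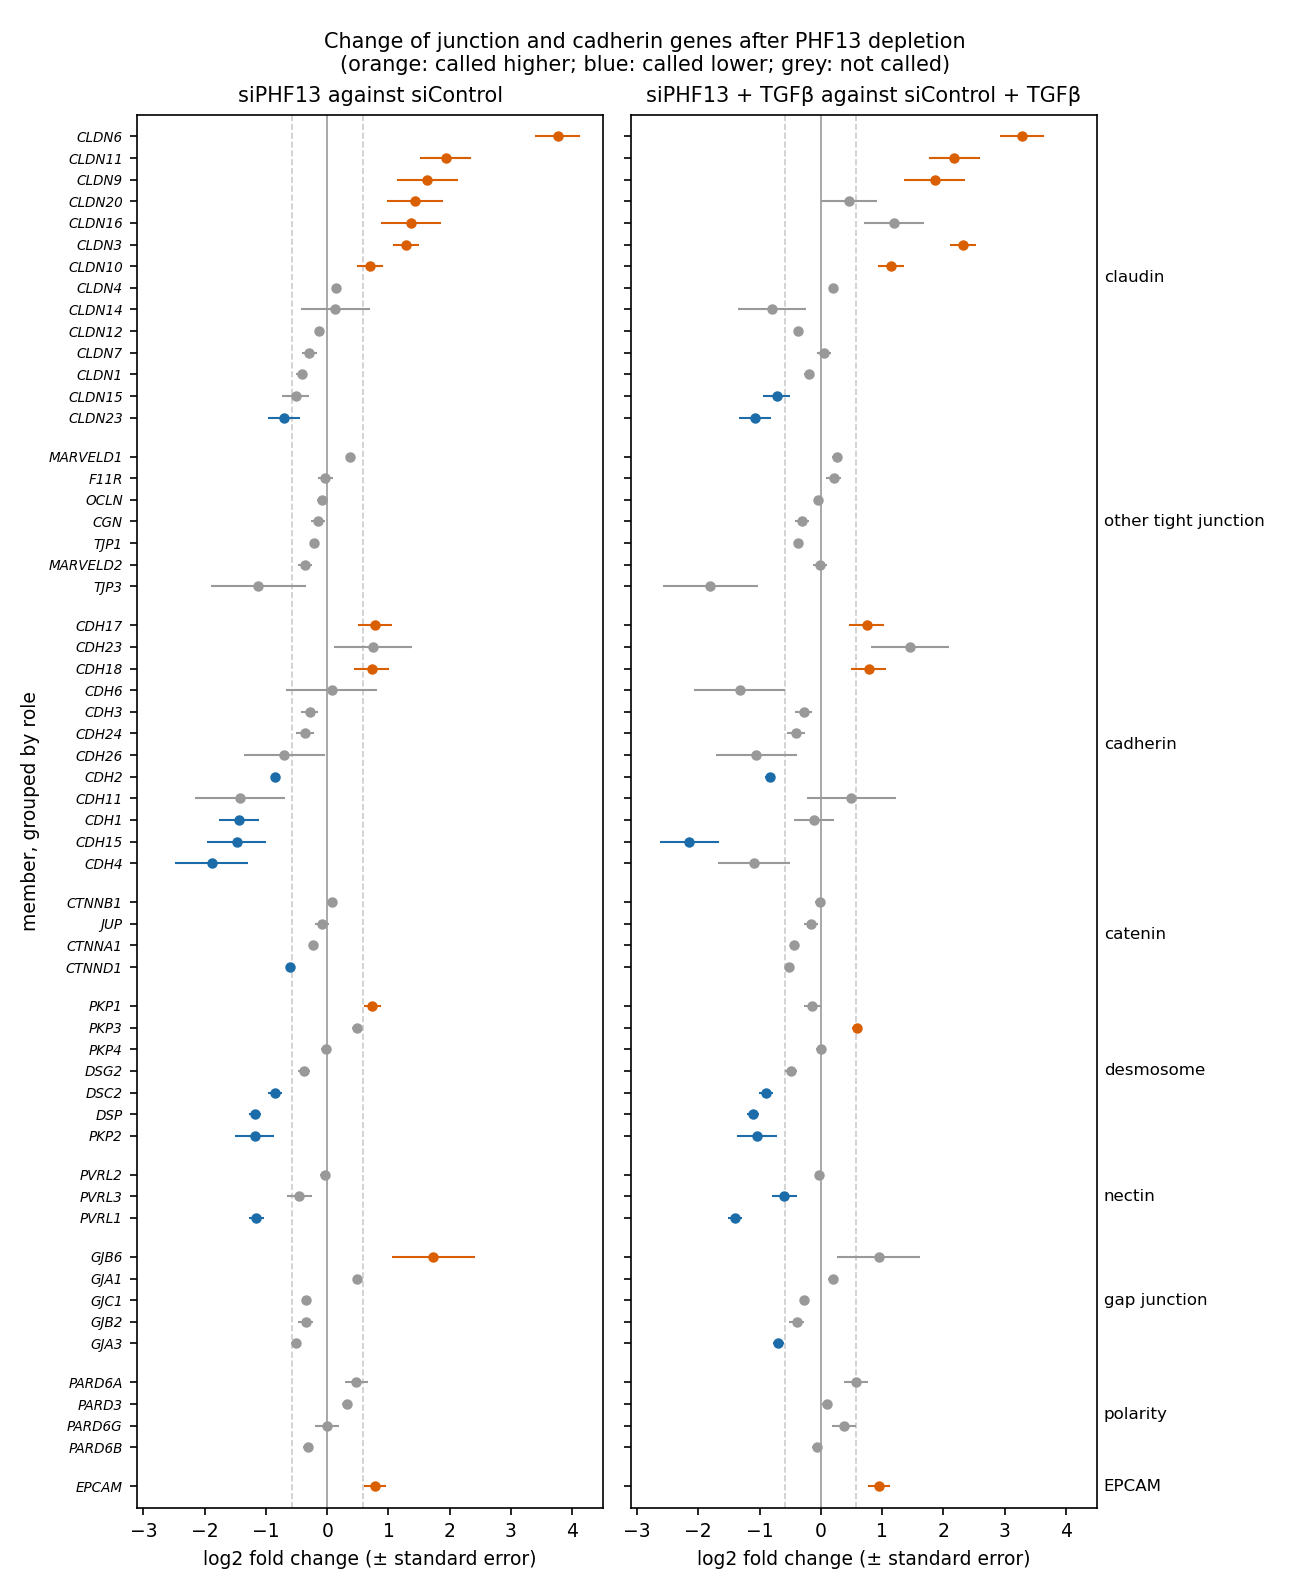
Members are each drawn at their log2 fold change (x axis, with the standard error as the bar) after PHF13 depletion without TGFβ (left) and with TGFβ (right), grouped by role, with dashed lines at the fold threshold of 0.58. Without TGFβ, 7 of 14 claudins lay to the right as called higher, and 3 of 7 desmosomal genes to the left as called lower.

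Among claudins 7 of 14 were called higher and 1 lower, with a median of 0.42. *CLDN6*, a claudin otherwise known from embryonic epithelia, had 7.59 and 19.8 normalized counts in the siControl libraries and 159 and 204 in the siPHF13 libraries. It was near the lower end of the table in control cells and at moderate level in both depleted libraries, with a wide gap between the groups. Its log2 fold change was 3.76 (standard error 0.36), which is 13.6-fold (adjusted p = 1.92e-06, limma), and it was 3.12 without siControl replicate 1 and 4.40 without siControl replicate 2. *CLDN3*, which seals tight junctions, had 136 and 102 normalized counts in siControl and 261 and 316 in siPHF13 libraries. Both depleted libraries stood clearly above both controls, by 2.43-fold (log2 1.28, standard error 0.21, adjusted p = 0.000245, limma). *CLDN11*, the claudin of myelin and Sertoli cells, had 37.0 and 23.4 normalized counts in siControl libraries and 115 in each siPHF13 library. The gap exceeded the spread in either group (log2 fold change 1.93, standard error 0.42, adjusted p = 0.00179, limma). *CLDN9*, the gene next to *CLDN6*, had 13.3 and 33.3 normalized counts in siControl and 77.6 and 59.2 in siPHF13 libraries (log2 fold change 1.64). The pore-forming *CLDN10* had at most 113 normalized counts in a siControl library and 149 and 200.2 in the siPHF13 libraries (log2 fold change 0.70). Low-level calls were made for *CLDN16*, a claudin of cation transport in the kidney, and for *CLDN20*. *CLDN16* had 9.48 and 12.6 normalized counts in siControl and 25.9 and 34.5 in siPHF13 libraries (log2 fold change 1.37). *CLDN20* had 13.3 and 9.91 against 32.8 and 32.6 (log2 fold change 1.43). Among the called claudins the exception in direction was *CLDN23*, with 119.5 and 138 normalized counts in siControl and 84.5 and 73.0 in siPHF13 libraries (log2 fold change -0.70).

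The calls of *CLDN6*, *CLDN3* and *CLDN11* were kept with any 1 of the 4 libraries left out, and the call of *EPCAM* was too. That of *CLDN9* was lost without siControl replicate 1 (log2 fold change 1.00) and without siPHF13 replicate 1 (1.44) and was kept without siControl replicate 2 (2.27), and that of *CLDN10* without siControl replicate 2 (0.61) and without siPHF13 replicate 2 (0.49). *CLDN20* lost its call without siControl replicate 2 (1.24), siPHF13 replicate 1 (1.43) or siPHF13 replicate 2 (1.44). *CLDN16* (1.17 to 1.57) and *CLDN23* (-0.81 to -0.60) lost theirs without any 1 of the 4 libraries. Smaller values were found for the abundant claudins. *CLDN1* passed the p threshold alone at -0.42, with 7046 and 7139.6 normalized counts in siControl and 4926 and 5721 in siPHF13 libraries, and *CLDN4* at 0.14, with 12347 and 12829 against 13749 and 14063. The other 4 claudins, *CLDN7*, *CLDN12*, *CLDN14* and *CLDN15*, did not pass the p threshold, with log2 fold changes between -0.52 and 0.13. *CLDN10* lies over the gene *DZIP1* on the other strand and shares 56.2% of its exon stretches of 150 bases with it, and the strand setting of the counting is not given in the sources used here, so its reads may include those of *DZIP1*. The spans of *CLDN20* and *CLDN6* overlap *TFB1M* and *TNFRSF12A* on the other strand, with 0% of such stretches shared with another gene. These partners had log2 fold changes of -0.057, -0.13 and 0.18 and were not called. For *CLDN11* 16.9% and for *CLDN23* 63.2% of these stretches also belong to another annotated gene of the same locus, so their counts depend on how such reads were assigned.

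**Figure D2:**
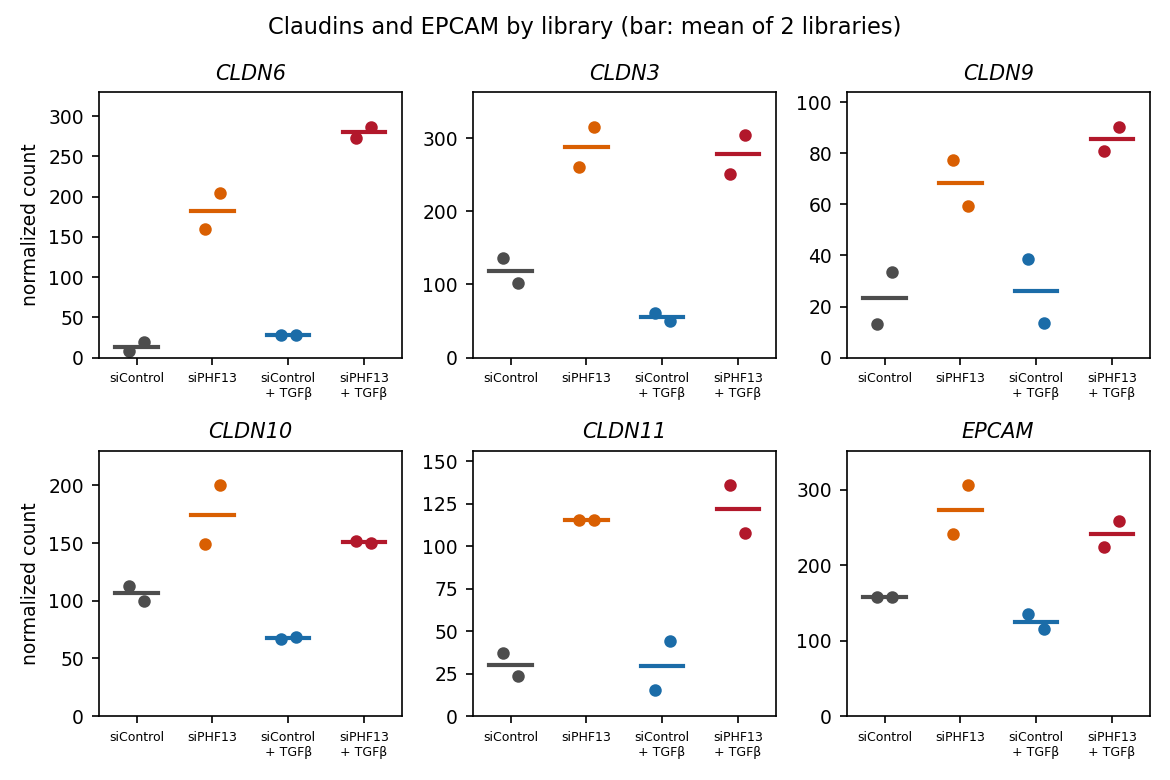
Normalized counts (y axis) of 5 claudins and *EPCAM* in each of the 8 libraries (points), with bars at the mean of each group of 2. In all 6 genes both siPHF13 libraries lay above both siControl libraries, and both siPHF13 + TGFβ libraries above both siControl + TGFβ libraries. All 6 were called higher in both comparisons, so this order is not separate evidence.

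*EPCAM*, a homophilic adhesion protein of epithelia that also binds claudins, had 157 and 158 normalized counts in siControl and 241 and 306 in siPHF13 libraries. Both depleted libraries were higher (log2 fold change 0.78, standard error 0.18, adjusted p = 0.00292, limma). Among the other tight junction genes, the scaffold *TJP1* (ZO-1) passed the p threshold alone at -0.21 and the low *TJP3* had a wide error at -1.12 (standard error 0.78). *MARVELD1* (0.38) and tricellulin (*MARVELD2*, -0.37) also passed the p threshold alone, in opposite directions, while occludin (*OCLN*, -0.089), the adhesion protein *F11R* (-0.032) and cingulin (*CGN*, -0.15) did not. Of the exon stretches of 150 bases of *F11R* 32.3% are shared with a second annotated gene at the same place, so its counts also depend on how shared reads were assigned.

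In the cadherin family 2 of 12 were called higher and 4 lower. *CDH1* had 403 and 459.5 normalized counts in siControl and 106 and 233 in siPHF13 libraries. Both depleted libraries lay below both controls, yet they differed from each other by more than either differed from the siControl + TGFβ libraries at 118 and 121. With a value of -1.44 on the log2 scale (standard error 0.33) it was called lower at adjusted p = 0.0026 (limma), and the value became -0.88 when siPHF13 replicate 1 was left out and -2.01 when siPHF13 replicate 2 was left out, called in both cases. *CDH2* had 2252 and 2074 against 1158 and 1242 normalized counts (log2 fold change -0.85, standard error 0.076, adjusted p = 1.04e-06, limma). Thus E-cadherin and N-cadherin transcripts were both lower in depleted cells, and the groups did not overlap for either. R-cadherin (*CDH4*) and M-cadherin (*CDH15*, known from muscle) were called lower at low level. *CDH4* had 31.3 and 54.1 normalized counts in siControl and 9.95 and 10.9 in siPHF13 libraries (log2 fold change -1.89). *CDH15* had 35.1 and 47.8 against 9.95 and 19.7 (-1.48). The intestinal cadherin *CDH17* and the neural *CDH18* were called higher near the p threshold. *CDH17* had 54.1 and 40.5 normalized counts in siControl and 71.6 and 91.7 in siPHF13 libraries (log2 fold change 0.78, adjusted p = 0.0347, limma). *CDH18* had 54.1 and 91.9 against 132 and 104 (0.72, adjusted p = 0.0476, limma). The latter was not called with edgeR (0.69, adjusted p = 0.0589) or DESeq2 (0.69, adjusted p = 0.0656). Each of these 4 calls was lost under more than 1 choice of library left out, at times with the value hardly changed. *CDH4* was lost without siControl replicate 2 (-1.50) or either siPHF13 library (-1.83 and -1.95), *CDH15* without either siControl library (-1.69 and -1.26) or siPHF13 replicate 1 (-1.02), *CDH17* without siControl replicate 2 (0.58) or siPHF13 replicate 2 (0.60), and *CDH18* without siControl replicate 1 (0.35) or either siPHF13 library (0.55 and 0.90). P-cadherin (*CDH3*, -0.28) and *CDH24* (-0.36), the most abundant other cadherins, were not called, nor were *CDH6*, *CDH11*, *CDH23* and *CDH26*, which lay between -1.43 and 0.75 with standard errors of 0.63 to 0.74.

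Among catenins, p120 catenin (*CTNND1*), which stabilises cadherins at the membrane, had 19464 and 19948 normalized counts in siControl and 12442 and 13386 in siPHF13 libraries. It was just past the fold threshold at -0.61 (adjusted p = 2.2e-06, limma) and just short of it without siPHF13 replicate 1 (-0.56). *CTNNA1* passed the p threshold alone at -0.24, and β-catenin (*CTNNB1*, 0.081) and *JUP* (-0.092) did not pass it. For *CTNND1* 74.6% of the exon stretches of 150 bases also belong to a second annotated gene of the locus. Nectin-1 (*PVRL1*), a partner of cadherins at young contacts, had 818 and 855 normalized counts in siControl and 384 and 366 in siPHF13 libraries. The groups were far apart relative to their spread, with 44.9% left (log2 fold change -1.16, standard error 0.12, adjusted p = 3.05e-06, limma). *PVRL3* (-0.45) and the abundant *PVRL2* (-0.035) were not called.

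Desmosomal genes were called lower in 3 and higher in 1 of 7 cases. *DSP*, whose product links the plaque to keratin, had 1711 and 1757 normalized counts in siControl and 751 and 784 in siPHF13 libraries. Replicates were tight and 44.3% of the control level was left (log2 fold change -1.17, standard error 0.10, adjusted p = 6.63e-07, limma). Desmocollin 2 (*DSC2*) had 493 and 536 against 277 and 292 normalized counts (log2 fold change -0.85, standard error 0.12). Its adhesion partner desmoglein 2 (*DSG2*) moved in the same direction below the fold threshold, with 946 and 994 against 769 and 719 (log2 fold change -0.38, adjusted p = 0.00449, limma). Plakophilin 2 (*PKP2*) had 149 and 118 in siControl and 40.8 and 81.9 in siPHF13 libraries (log2 fold change -1.18), and its call was lost without siControl replicate 1 (-1.02) or siPHF13 replicate 1 (-0.69). Plakophilin 1 (*PKP1*), known from stratified epithelia, went the other way, with 187 and 232 in siControl and 339 and 358 in siPHF13 libraries (log2 fold change 0.74, standard error 0.14, adjusted p = 0.000563, limma). *PKP3* passed the p threshold alone at 0.49 and *PKP4* was at -0.027. The plakophilins therefore did not share a direction in this comparison, and no test of the difference between them was made.

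**Figure D3:**
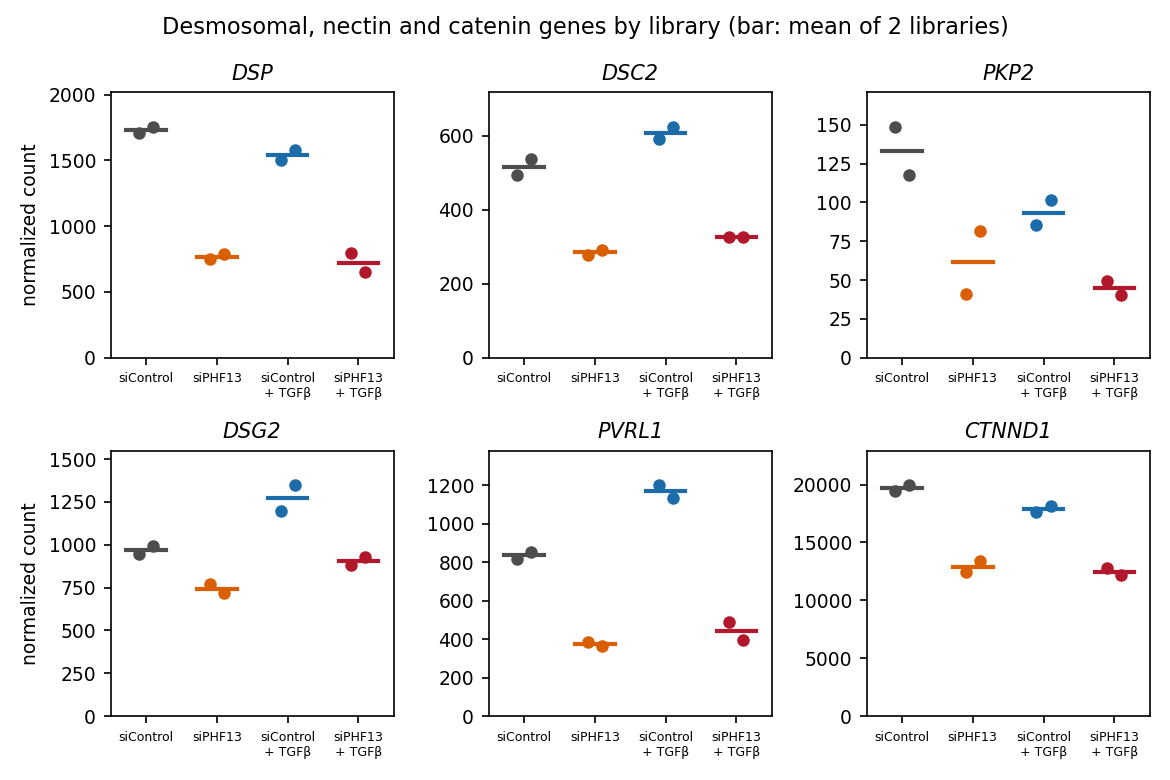
Normalized counts (y axis) of 4 desmosomal genes, the nectin *PVRL1* and p120 catenin (*CTNND1*) in each of the 8 libraries (points), with bars at the mean of each group of 2. Both siPHF13 libraries lay below both siControl libraries in all 6, with and without TGFβ. All but *DSG2* were called lower without TGFβ, so for those genes this order is not separate evidence.

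Of 7 connexins 1 was called, *GJB6*, the connexin 30 of skin and ear, with 3.79 and 11.7 normalized counts in siControl and 36.8 and 16.8 in siPHF13 libraries (log2 fold change 1.73, standard error 0.68, adjusted p = 0.0494, limma). Its siControl mean of 7.75 was under the lowest mean in the table of 9.82, so it is in the table through its other libraries. That call was at the edge of the threshold, with adjusted p = 0.0503 at a pseudocount of 5 (limma), and it was lost without siControl replicate 1 (1.03) or siPHF13 replicate 1 (1.19), while the value without siControl replicate 2 was 2.44. Connexin 43 (*GJA1*) at 0.48 and connexins *GJA3* (-0.51), *GJB2* (-0.35) and *GJC1* (-0.34) passed the p threshold alone. None of the 4 polarity genes was called without TGFβ with limma, edgeR or DESeq2. By limma 2 of them passed the p threshold adjusted and 3 unadjusted, with *PARD3* at 0.32 and *PARD6B* at -0.31.

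With TGFβ alone few junction genes were called in control cells, at a share not far from that of all genes. Of the 60 members 4 were called (6.67%), where 4.79% of all genes were. Of the same 60, 2 were higher, where 3.27% of all genes were, and 2 lower, where 1.52% of all genes were. Higher were *PKP1* and *GJA1*, and lower were *CDH1* and *CLDN3*. *CDH1* had 403 and 459.5 normalized counts in siControl and 118 and 121 in siControl + TGFβ libraries. The 2 treated libraries were alike and 27.9% of the untreated level was left (log2 fold change -1.84, standard error 0.33, adjusted p = 0.00163, limma). *CLDN3* had 136 and 102 against 60.4 and 49.4 normalized counts (log2 fold change -1.09, adjusted p = 0.00296, limma), a call lost without siControl replicate 1 (-0.89). *PKP1* had 187 and 232 in siControl and 513 and 525 in siControl + TGFβ libraries, which is 2.48-fold (log2 1.31, standard error 0.14, adjusted p = 2.1e-05, limma). *GJA1* had 1336 and 1352 against 2268 and 2363 normalized counts, 1.72-fold (log2 0.78, adjusted p = 5.66e-06, limma). In none of these 4 called genes did treated and untreated control libraries overlap, which again is not separate evidence.

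*CDH2* had 3101 and 3167 normalized counts in siControl + TGFβ libraries. At 0.54 it passed the p threshold and not the fold threshold, and it passed both without siControl replicate 1 (0.60). Of the 12 members that passed the p threshold alone, *PVRL1* (0.48), *MARVELD1* (0.42), *DSG2* (0.39), *TJP1* (0.33), *CLDN12* (0.33) and *CTNNA1* (0.21) had positive values beside *CDH2*, and *PARD6B* (-0.47), *PKP3* (-0.40), *CLDN1* (-0.28), *CLDN4* (-0.24) and *OCLN* (-0.23) negative ones. The share past the p threshold was 16 of 60, against 15.9% of all genes. *CDH6* (2.26) and *CLDN14* (1.69) missed it at low level. *CDH6* had 5.69 and 5.41 normalized counts in siControl and 29.1 and 31.9 in siControl + TGFβ libraries, and *CLDN14* had 15.2 and 8.11 against 56.1 and 25.7. Both were called with edgeR and with DESeq2 on recovered reads, which are fits to the same libraries. *CDH6* had means of 5.55 in siControl and 6.95 in siPHF13 libraries, under the lowest mean in the table of 9.82. It is therefore in the table through its TGFβ-treated libraries. *EPCAM* was at -0.34 (adjusted p = 0.25, limma).

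For depletion in TGFβ-treated cells, group means came from libraries that the untreated comparison did not use. The spread behind the p-values of both comparisons was estimated from all 8 libraries together, so their calls are not independent. Under TGFβ 20 of the 60 members were called after depletion (33.3%), against 20.5% of all genes. Of the 60, 9 were higher, where 8.81% of all genes were, and 11 lower, where 11.7% of all genes were. By adjusted p alone 33 of the 60 members passed, where 50.4% of all genes did. The median of members was -0.09 and that of all genes 0.0034. Both comparisons called 16 members the same way, 8 higher and 8 lower, which is 69.6% of the 23 and 80.0% of the 20. None was called in opposite directions. Over all genes 1823 were called the same way in both, 74.5% and 66.9% of the respective calls. The 8 higher in both were *CLDN3*, *CLDN6*, *CLDN9*, *CLDN10*, *CLDN11*, *EPCAM*, *CDH17* and *CDH18*, and those lower in both included *CDH2*, *CDH15*, *CLDN23*, *DSC2*, *DSP*, *PKP2* and *PVRL1*.

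*CLDN6* had a mean of 27.9 normalized counts in siControl + TGFβ and libraries at 273 and 287 in siPHF13 + TGFβ, the highest of the 4 groups (log2 fold change 3.28, standard error 0.36, adjusted p = 6.08e-06, limma). *CLDN3* had 60.4 and 49.4 against 252 and 304 normalized counts, 4.99-fold (log2 2.32, standard error 0.21, adjusted p = 1.16e-06, limma). Its depleted libraries overlapped between treated and untreated cells, while its control libraries were lower with TGFβ. *CLDN10* showed 66.8 and 68.9 against 152 and 150.1 (log2 fold change 1.14), and *CLDN11* 15.1 and 44.2 against 136 and 108 (log2 fold change 2.18, 1.43 without siControl + TGFβ replicate 1 and 2.92 without replicate 2 of that group). The neighbour *CLDN9* had 38.8 and 13.4 against 81.0 and 90.5 (log2 fold change 1.86, 1.12 and not called without siControl + TGFβ replicate 2, 2.59 without replicate 1 of that group). *EPCAM* had 135 and 115 against 225 and 258 normalized counts (log2 fold change 0.94, standard error 0.18, adjusted p = 0.000669, limma). *CLDN15* was called lower here (-0.72, with 251 and 195 against 135 and 133 normalized counts; not called without siControl + TGFβ replicate 1, -0.54), where it had missed the threshold without TGFβ. *CLDN16* and *CLDN20* were at 1.19 and 0.46 and not called.

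Of the genes lower in both comparisons, *PVRL1* had 1201 and 1137 normalized counts in siControl + TGFβ and 490.1 and 396 in siPHF13 + TGFβ libraries, with 37.7% left (log2 fold change -1.41, standard error 0.12, adjusted p = 4.57e-07, limma). *DSP* had 1505 and 1583 against 795 and 651 (log2 fold change -1.10) and *DSC2* 592 and 624 against 327 and 325 (-0.90). Each of these 3 kept its call with any library left out, and in each the groups were well separated. The remaining desmoglein *DSG2* was at -0.49 (adjusted p = 0.000746, limma), again short of the fold threshold. *CDH2* had 1789 and 1731 normalized counts in siPHF13 + TGFβ libraries (log2 fold change -0.83), below both untreated controls. *CDH15* was at -2.15 and *CLDN23* at -1.08, and *GJA3*, the connexin 46 of the lens, with 1596 and 1598 against 1053 and 929 normalized counts, was called at -0.69. *PKP2* (-1.04) was not called without siControl + TGFβ replicate 2 (-0.91) or siPHF13 + TGFβ replicate 2 (-0.89), nor was *PVRL3* (-0.59; -0.48 and -0.32), which was also under the fold threshold with edgeR (-0.57) and DESeq2 (-0.578). *PKP3* (0.59) fell short of the fold threshold without the same libraries (0.53 and 0.57), and *CDH17* (0.75) and *CDH18* (0.78) were not called without siControl + TGFβ replicate 1 (0.57 and 0.63), siPHF13 + TGFβ replicate 1 (0.79 and 0.80) or siPHF13 + TGFβ replicate 2 (0.70 and 0.76), nor was *CDH17* with DESeq2 (0.75, adjusted p = 0.0577).

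*CDH1* did not pass the test for depletion when TGFβ was present. It had 118 and 121 normalized counts in siControl + TGFβ and 78.8 and 154 in siPHF13 + TGFβ libraries, so that the depleted libraries lay on either side of the controls (log2 fold change -0.11, standard error 0.33). The log2 value was 0.36 without siPHF13 + TGFβ replicate 1 and -0.59 without siPHF13 + TGFβ replicate 2. *PKP1* was at -0.14, with 513 and 525 against 459 and 485 normalized counts. *CDH4* and *CTNND1*, called without TGFβ, had values of -1.09 and -0.52 with it, the latter past the p threshold alone. The polarity gene *PARD6A* was at 0.579 (adjusted p = 0.023, limma), just under the fold threshold. It was called with edgeR, with DESeq2 and with TMM scaling.

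With TGFβ added to depleted cells, no member was called with limma, edgeR or DESeq2, where 1.35% of all genes were called with limma (1.13% higher and 0.218% lower). At an unadjusted p under 0.05 there were 12 members with limma, 13 with edgeR and 12 with DESeq2. By limma 2 passed the adjusted p threshold with a fold under the limit, where 3.07% of all genes passed that threshold. *CDH2* had 1158 and 1242 normalized counts in siPHF13 and 1789 and 1731 in siPHF13 + TGFβ libraries (log2 fold change 0.55, adjusted p = 0.000712, limma; 0.60 and called without siPHF13 replicate 2). *GJA1* had 1840.1 and 1921 against 2677 and 2613 (log2 fold change 0.49, adjusted p = 0.00108, limma). In both genes the treated libraries were above the untreated ones. *CLDN3* was at -0.052, *PKP1* at 0.44 and *CDH1* at -0.51 with a standard error of 0.33, and the direction of *CDH1* turned without siPHF13 replicate 2 (0.050).

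The difference between the TGFβ responses of depleted and control cells was tested as an interaction. No member was called with limma, where 0.308% of all genes were (0.0601% with a positive and 0.248% with a negative difference), nor with edgeR, and 1, *PKP1*, was called with DESeq2. At an unadjusted p under 0.05 there were 7 members with limma, 7 with edgeR and 5 with DESeq2. No member passed the adjusted p threshold alone, where 0.413% of all genes did. The smallest adjusted p was that of *PKP1*, with TGFβ responses of 1.31 in control and 0.44 in depleted cells (difference -0.88, standard error 0.19, adjusted p = 0.085, limma). For *CLDN3* the difference was 1.04 (standard error 0.30, adjusted p = 0.214, limma), from a response of -1.09 in control and -0.052 in depleted cells. For *CDH1* it was 1.33 (standard error 0.47, adjusted p = 0.327, limma), and it was called without siPHF13 + TGFβ replicate 1 (1.81). For *CDH2* it was 0.017 with a standard error of 0.11. A p above the threshold does not show that these responses are alike.

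Several members are neighbours in the genome, and 7 pairs lie within 100 kb of each other in the GENCODE annotation of GRCh37. *CLDN9* (chromosome 16, 3062924 to 3064506, plus strand) and *CLDN6* (3064713 to 3070072, minus strand) face each other with 207 bases between their ends, and both were called higher in both depletion comparisons. Neighbours elsewhere did not share a call without TGFβ. *CLDN3* (chromosome 7, 73183327 to 73184600) was called at 1.28, and *CLDN4*, 29272 bases away, was at 0.14. *CLDN16* (chromosome 3, 190040330 to 190129927) was called higher at 1.37, and *CLDN1*, which starts 95 bases away, was at -0.42. *CDH1* (chromosome 16, 68771195 to 68869440) was called lower at -1.44, and *CDH3*, 9824 bases before it, was at -0.28. In the connexin cluster of chromosome 13, *GJB6* was called higher without TGFβ at 1.73, while *GJB2* (-0.35) and *GJA3* (-0.51) had negative values. *MARVELD2* and *OCLN*, 47962 bases apart on chromosome 5, were at -0.37 and -0.089.

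Genes outside the rule that act on junctions were taken from lists of repressors, epithelial regulators and junction partners. Of 11 repressors 9 were in the table. In siPHF13 against siControl 2 were called lower and 0 higher, with a median of -0.14, where 10.4% of all genes were lower and 7.95% higher. *SNAI1*, which represses *CDH1* in EMT, had 502 and 565 normalized counts in siControl, 155 and 181 in siPHF13, 1768 and 1267 in siControl + TGFβ and 402 and 351 in siPHF13 + TGFβ libraries. It was lower after depletion (-1.66 without and -1.99 with TGFβ) and higher with TGFβ (1.49), while the abundant *ZEB1* was at -0.14, -0.30 and 0.12 and not called. *ZEB2* was called lower without TGFβ (-1.15) at low level, with 44.6 and 54.1 against 16.9 and 27.6 normalized counts. *FOXC2* was called higher with TGFβ in control cells (0.63). Thus *CDH1* and *SNAI1* transcripts were both lower after depletion without TGFβ. Of 10 epithelial regulators 7 were in the table, and the medians were -0.51 after depletion and -0.57 with TGFβ in control cells. In each comparison 2 were called lower and 0 higher, where 10.4% and 1.52% of all genes were lower. The regulators called lower were the splicing factor *ESRP1* (-2.42) and *KLF5* (-1.29) after depletion, and *ELF3* (-1.18) and *GRHL3* (-0.92) with TGFβ. *ESRP1* and *KLF5* were at low level. *ESRP1* had 27.5 and 28.8 normalized counts in siControl and 4.97 and 3.95 in siPHF13 libraries (standard error 0.63). *KLF5* had 65.4 and 54.1 against 25.9 and 21.7 (standard error 0.39).

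Of 32 junction partners 26 were in the table, and 3 were called higher and 3 lower after depletion without TGFβ, with a median of -0.11. Over all genes 7.95% were called higher and 10.4% lower. The lower partners were *LSR*, the angulin of tricellular junctions (-1.02), and the scaffolds *DLG1* (-0.79) and *MPDZ* (-0.59). Higher were the desmosomal *PERP* (0.87) and the scaffolds *MAGI2* (0.80) and *MAGI1* (0.60). With TGFβ 2 were called higher after depletion (*PERP* and *MAGI2*) and 5 lower (*LSR*, *DLG1*, *MPDZ*, *LLGL2* and *CGNL1*), with a median of -0.18. In that comparison 8.81% of all genes were called higher and 11.7% lower. In control cells TGFβ lowered 1 partner, periplakin (*PPL*, -1.21), and raised 0, where 1.52% of all genes were lower and 3.27% higher. Periplakin was also called lower with TGFβ in depleted cells (-0.83), where 0.218% of all genes were.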

How the data were processed

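RNA-seq of 8 Panc-1 libraries was analysed. Per the labels and the study's methods, the authors extracted RNA with QIAzol, selected polyA RNA, sequenced paired ends, trimmed reads with Trim Galore 0.4.1, aligned them with STAR 2.7.0 to hg19 and counted them over exons with HTSeq 0.12.4. The annotation release and strand setting are not given in the sources used here. The deposited signal values are gene counts that the authors divided by DESeq2 size factors, and siControl libraries are named NT there. In all 8 libraries 100% of values were whole multiples of 1 step within 1e-06, so reads were recovered for edgeR 4.0.16 and DESeq2 1.42.0 as alternatives. The deposited comparisons (group means, fold changes, p-values) were not used.

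All 13307 genes were fitted at once with limma 3.58.1 (R 4.3.3, trended prior variance, no block) on log2(normalized count + 1), which understates fold changes of low genes. p-values are 2-sided and Benjamini-Hochberg adjusted over all genes, and the minimum of 10 normalized counts in 2 libraries removed 0 genes. Recovered reads, which the design had not foreseen, left this test as the main one. Scripts were tested on simulated data. Depth was 39196214 to 46700806 reads, and with 2 libraries per group precision rests on a spread shared over genes.

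The members and lists were chosen with earlier results of these data known. Named by rule were *CDH1*, *CDH2* and *EPCAM*, called members whose libraries did not overlap (up to 12 in each direction and comparison), interaction calls and the highest member per role per base. Other members and listed genes were named to complete a role, after their values were seen. Alternatives were another pseudocount, no minimum, TMM scaling, edgeR, DESeq2, a replicate block, only the libraries compared, no fold threshold and each library left out. Positions and exon lengths came from GENCODE on GRCh37 (60 symbols matched, 3 through older names), and RefSeq promoter sequences of a GRCh38.p14 table were placed by exact match in GRCh37. The same table gave no promoter for the other 21 members, which were not analysed here in that respect. Values of some members and of 1 marker are not reported here, though counts over all members include them.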

Additional observations from a re-analysis of the deposited data

How the results depend on the processing

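With the fold threshold dropped, 37 members passed in siPHF13 against siControl in place of 23, 16 in place of 4 with TGFβ in control cells, 33 in place of 20 for depletion under TGFβ and 2 in place of 0 for TGFβ in depleted cells. With 1 library left out, where the remaining library of a group is taken to vary like the others, these counts were 15 to 17, 4 to 6, 17 to 20 and 0 to 1, and the interaction count 0 to 1. DESeq2 gave 1 interaction call (*PKP1*). Of 56 named values 29 kept their call under every setting run for them, 27 changed it somewhere and 4 changed direction, all with 1 library left out: *CDH1* under TGFβ (-0.59 to 0.36), the TGFβ response of *CDH1* in depleted cells (-1.07 to 0.050), and the interactions of *CDH2* (-0.042 to 0.076, with -0.034 and -0.0070 without the first siPHF13 and siPHF13 + TGFβ libraries) and *EPCAM* (-0.0081 to 0.34). The cause was not tested. Same-numbered replicates did not deviate together (correlations -0.0893 to 0.05), so no pairing by number was seen. Pairing without a shared deviation would not show in this check. The replicate block gave 21, 5, 21, 0 and 0 calls in the same order; *CDH18* and *GJB6* were lost, and *CLDN6* with TGFβ and *CDH23* under TGFβ were gained. Apart from that DESeq2 call, counts with TMM scaling, edgeR, DESeq2, another pseudocount, no minimum and only the libraries compared stayed within 1.5 times the counts above. With 2 libraries per group, changes in members under 100 normalized counts are the least certain.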
